A study of Mus musculus with 4 samples.

Results

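Protocadherins are a large family of cadherin-like adhesion proteins of neurons, and 67 of the 14572 entries of the deposited gene table carried a symbol that starts with Pcdh, the rule by which the members were chosen. Of these, 13 were Pcdha genes, 21 Pcdhb genes and 22 Pcdhg genes, which are the 56 clustered members, and 11 were non-clustered. RefSeq's table for GRCm38 lists 70 such symbols, and Pcdh12, Pcdha10 and Pcdhb1 had no entry among those analysed. RNA came from whole mouse retinas on a C57BL/6 background, taken 5 days after an acute ocular hypertension (AOH) of 1 h, in which a rise of eye pressure injures the retina as in acute glaucoma. The series holds 2 libraries of genotype WT (P1041 and P1033) and 2 of genotype TG, from PLSCR1 transgenic mice (TP-1036 and TP-1040). PLSCR1 is a phospholipid scramblase. All 4 libraries came from injured eyes, whose titles carry the mark OD, and the comparison is thus one of genotypes after injury, with no uninjured retina. The TP columns were taken as TG because they are marked case and TG is the other group of the series. They are called transgenic-labelled, and no source used here names the promoter or line of the transgene. An age of E14.5 stands in the labels, which is at odds with injury of an eye and harvest 5 days later, and it entered no comparison.

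In the clustered families, tandem variable exons each carry a promoter of their own, and choice of promoter gives every neuron its own set of protocadherins. In Pcdha and Pcdhg each variable exon is spliced to constant exons shared by the whole cluster, whereas Pcdhb genes are single exons. Proteins of the 3 clusters bind their like across cells, and in the retina the Pcdhg genes are known for self-avoidance of starburst amacrine cell dendrites and for survival of interneurons. The non-clustered members are separate genes, most of them of the delta group, with roles in cell sorting and axon growth, and Pcdh15 is an adhesion protein of hair cells and photoreceptors.

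Library totals ran from 28866589 to 41215649 estimated reads, and protocadherins took 0.167% and 0.171% of them in wild type against 0.141% (TP-1036) and 0.159% (TP-1040). Whole-number counts show where reads were divided between similar genes. All 44 values of the non-clustered genes were whole numbers, as were 75 of 84 Pcdhb values, but only 1 of 52 Pcdha values and 0 of 88 Pcdhg values. Of the 50-base stretches in a member's longest transcript (GENCODE M21), a median of 59.9% also lay in another member for Pcdha, 45.1% for Pcdhg, 4.82% for Pcdhb and 0% for the non-clustered genes. Summed over a cluster in a library, the divided reads came back to within 0.02 of a whole number for Pcdha and 0.01 for Pcdhg. The sum of each cluster is therefore less exposed to the division of reads than the value of any single Pcdha or Pcdhg gene, and those single values are uncertain.

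Most protocadherins had lower values in the transgenic-labelled retinas, by small amounts, and the leading exception was Pcdhgc3. Of the 67 members 53 had a lower and 14 a higher value, with a median log2 difference of -0.15, against 0.0013 over all 14572 entries, of which 49.8% were lower. The log2 differences ran from -0.75 for Pcdh11x to 0.41 for Pcdhgc3, and 0 members differed by 1 or more. In 26 members (38.8%) both transgenic-labelled libraries lay below both wild-type libraries, against 24.3% of all entries, and in 5 (7.46%) both lay above, against 24.1%. Since 57 members lie on chromosome 18 and many share exons, these counts are not counts of independent genes.

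No member reached the threshold once p was adjusted over all entries. By the quasi-likelihood test of edgeR, Benjamini-Hochberg adjusted, the members' adjusted p ran from 0.489 to 0.999, and 0 of 67 were called, against 0.00686% of all entries, which is the lysozyme gene Lyz2 alone (adjusted p = 0.0425). At an unadjusted p under 0.05 the test gave 8 members (11.9%, against 9.91% of all entries), which were 7 lower members (10.4%, against 4.65% of all entries) and 1 higher member (1.49%, against 5.26%). DESeq2 called 0 members, against 0.597% of all entries, with a smallest adjusted p of 0.287. With 2 libraries a group, an exact two-sided permutation p cannot go below 0.333.

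Summed over each class, the level was lower in both transgenic-labelled libraries for 3 of the 4 classes. CPM here is a gene's count relative to the TMM-scaled library size. The non-clustered genes summed to 716 and 702 CPM in P1041 and P1033, against 562 and 629 CPM in TP-1036 and TP-1040, a change of -16.0%. The Pcdhb genes summed to 319 and 311 CPM in wild type against 247 and 292 CPM, a change of -14.4%. The Pcdha genes summed to 132 and 120 CPM against 106 and 118 CPM, a change of -11.2%. Each of these groups lay apart, although for Pcdha the distance between P1033 and TP-1040 was smaller than that between the wild-type libraries. The Pcdhg genes, the largest cluster by level, summed to 510 and 527 CPM in wild type against 520 and 560 CPM, and these groups overlapped. Within these sums Pcdhgc3 alone held 92.2 and 86.8 CPM in wild type against 118.3 and 119.9 CPM. Of the 22 genes 13 had lower values.

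**Figure D1:**
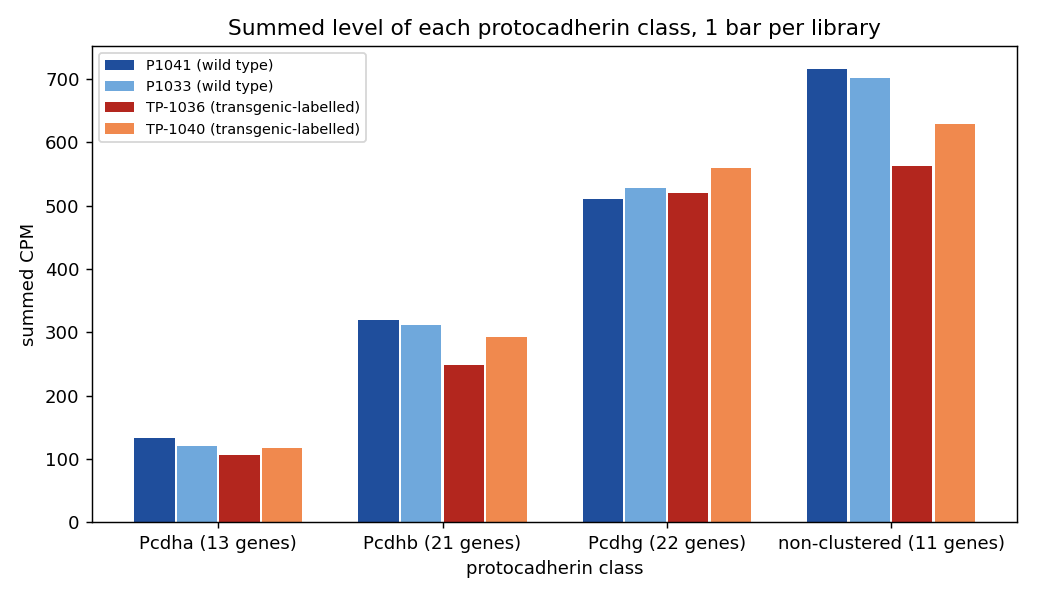
Summed CPM (vertical axis) of the genes of each protocadherin class (horizontal axis), with 1 bar per library, blue for wild type and red or orange for the transgenic-labelled libraries. The red and orange bars stand below both blue bars for Pcdha, Pcdhb and the non-clustered genes, while for Pcdhg TP-1036, at 520 CPM, lies between the wild-type libraries.

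The distances came more from TP-1036 than from TP-1040. Against the wild-type mean the median log2 ratio of the 67 members was -0.23 in TP-1036, where 55 were lower, and -0.062 in TP-1040, where 46 were lower. Between the wild-type libraries it was -0.039 (P1033 against P1041). By class, the median pairs, TP-1036 first, were -0.42 and -0.13 for Pcdha, -0.24 and -0.12 for Pcdhb, -0.061 and 0.018 for Pcdhg, and -0.31 and -0.16 for the non-clustered genes. In both transgenic-labelled libraries 43 members lay below the wild-type mean and 9 above it. Without TP-1040, when TP-1036 stands alone against wild type and is assumed to vary like wild type, edgeR called 19 members, 18 lower and 1 higher. That setting called 28.7% of all entries and 28.4% of the members. By direction, 26.9% of the members were called lower, against 15.7% of all entries, and 1.49% higher, against 12.9%. Without P1041, P1033 or TP-1036 the number of members called was 0, against 0.144%, 0.549% and 0.254% of all entries.

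**Figure D2:**
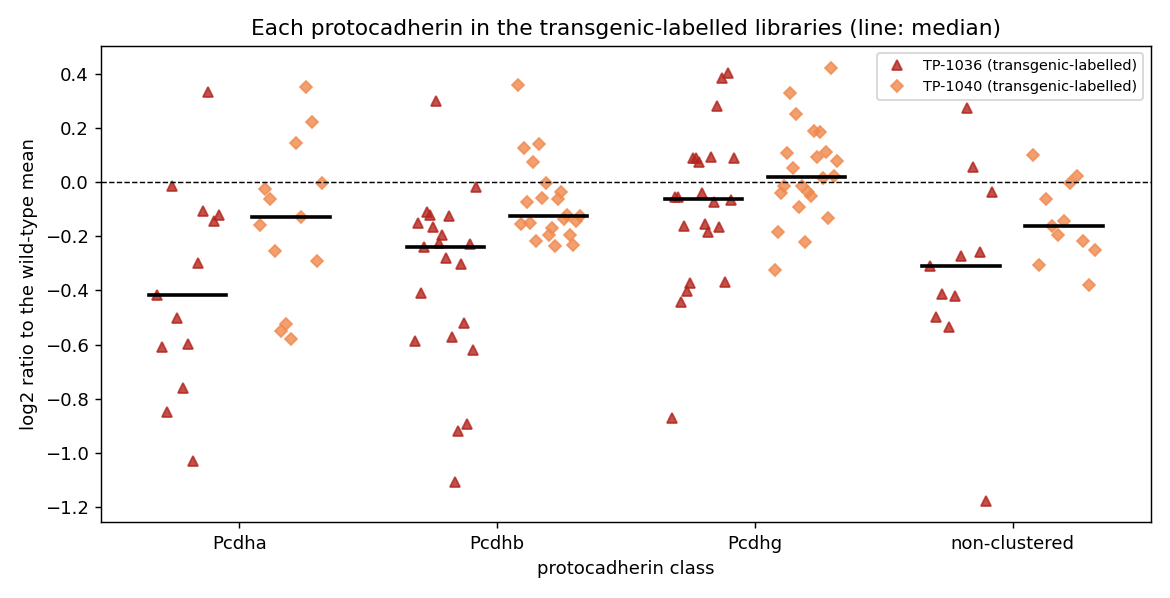
The log2 ratio of each protocadherin to its wild-type mean (vertical axis) by class (horizontal axis), with triangles for TP-1036, diamonds for TP-1040 and a black line at each median. The medians of TP-1036, from -0.42 to -0.061, lie below those of TP-1040 in all 4 classes, and the points of TP-1036 spread further down.

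Transcript length also moved with TP-1036. Across 14405 genes with a GENCODE length, the Spearman correlation of a library's log2 level, relative to the mean of the other libraries, with transcript length was -0.429 in TP-1036 and from 0.203 to 0.323 in the other libraries. Genes of one library share its preparation, so this is a description. The longest transcripts of the members had a median of 4732 bases, against 3472 bases over all entries with a length. With an offset for length fitted in each library the median log2 difference of the members was -0.12, against 0.026 over all entries. By class it was -0.12 for the non-clustered genes, -0.15 for Pcdhb, -0.21 for Pcdha and 0.037 for Pcdhg. Without the offset these class medians were, in the same order, -0.23, -0.16, -0.28 and -0.022. The non-clustered genes, with a median of 8234 bases, had the longest transcripts of the classes by median. The setting with the length offset called 0 of 14405 genes, and 0 members, by edgeR.

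Among the non-clustered genes, all of whose reads were whole numbers, Pcdh15 was by far the most abundant and 9 of 11 had lower values. Per kilobase of the longest transcript, mean levels over the 4 libraries were 27.8 CPM for Pcdh15, 13.4 for Pcdh9, 8.98 for Pcdh1, 8.29 for Pcdh10 and 7.85 for Pcdh7, and the other 6 lay between 0.945 (Pcdh11x) and 4.36 (Pcdh8). Neighbours such as Pcdh1, Pcdh10 and Pcdh7 differed in this order by less than their spread between libraries. The 250 bases before the annotated start are printed for 3 of them, from the RefSeq promoter table (build GRCm38.p6, all on the plus strand), because they stand for the most abundant member, a member lower in both transgenic-labelled libraries and the member with the largest higher value. Capitals mark matches on either strand to 4 motifs, and no matches share bases in these windows. The GC box was searched as GGGCGG. The CCAAT box was searched as the letters of its name. The TATA box was searched as TATAAA. The E-box was searched as CACGTG.
Pcdh15, chr10:73821617-73821866, plus strand: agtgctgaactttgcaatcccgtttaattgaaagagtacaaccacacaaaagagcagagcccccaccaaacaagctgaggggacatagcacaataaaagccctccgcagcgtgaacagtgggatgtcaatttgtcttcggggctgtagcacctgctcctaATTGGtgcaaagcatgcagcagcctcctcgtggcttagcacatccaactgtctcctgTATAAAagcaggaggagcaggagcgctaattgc
Pcdh10, chr3:45378148-45378397, plus strand: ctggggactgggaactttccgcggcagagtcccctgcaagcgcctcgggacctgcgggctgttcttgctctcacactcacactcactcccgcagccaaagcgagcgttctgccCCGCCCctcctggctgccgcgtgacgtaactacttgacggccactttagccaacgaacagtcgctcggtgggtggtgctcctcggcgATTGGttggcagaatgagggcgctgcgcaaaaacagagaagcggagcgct
Pcdh17, chr14:84443313-84443562, plus strand: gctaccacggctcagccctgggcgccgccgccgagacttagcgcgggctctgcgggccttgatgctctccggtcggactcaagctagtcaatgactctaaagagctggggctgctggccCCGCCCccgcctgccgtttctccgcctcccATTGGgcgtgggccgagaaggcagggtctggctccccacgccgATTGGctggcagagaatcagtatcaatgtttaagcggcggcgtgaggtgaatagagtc

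The Pcdh15 window held 1 CCAAT box and 1 TATA box, with 50.4% G or C. The Pcdh10 window held 1 GC box and 1 CCAAT box, with 63.2% G or C, and the Pcdh17 window held 1 GC box and 2 CCAAT boxes, with 64.8%. The promoter table matched 9 of the 11 non-clustered genes, in 10 windows of which a pair overlap at Pcdh9. A CCAAT box lay in 9 of the 10 windows, from 8 of the 9 genes (all but Pcdh7), against 33.8% of the 32851 windows of this length in the table. A GC box lay in 4 of 10, against 32.7%, a TATA box in 2 of 10 (Pcdh15 and Pcdh8), against 12.4%, and the E-box in 0 of 10, against 6.02%. A match is a string of letters and not a shown binding site. The bearing of these matches on the values was not tested, and for Pcdh17 the groups overlapped.

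Pcdh15, the Usher syndrome protocadherin of hair cell tip links and photoreceptors, had 7472 and 10028 reads in P1041 and P1033 and 7874 and 9991 reads in TP-1036 and TP-1040. Scaled, that was 259 and 301 CPM in wild type against 209 and 244 CPM, so both transgenic-labelled values lay below both wild-type values. The gap of TP-1040 to P1041 was smaller than that between the wild-type libraries. The log2 difference was -0.31 ± 0.14 (SE; adjusted p = 0.499, edgeR), and -0.11 with the length offset. It was -0.20 without TP-1036 and also without P1033.

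The delta-1 genes, whose proteins carry a longer set of cadherin repeats and a phosphatase-binding motif in the tail, all had lower values. Pcdh9 stood at 100.1 and 89.0 CPM in wild type and at 78.9 and 81.3 CPM in TP-1036 and TP-1040, a log2 difference of -0.24 ± 0.12 (adjusted p = 0.50). Its transgenic-labelled values lay close together and below both wild-type values, but the difference was -0.12 with the length offset and -0.15 without P1041. Pcdh7, known from axon growth and arborization of ganglion cells, stood at 84.0 and 70.2 CPM against 52.9 and 68.7 CPM, a log2 difference of -0.34 ± 0.16 (adjusted p = 0.50). TP-1040 was there within 2 CPM of P1033, and most of the distance lay in TP-1036. The difference was -0.17 with the length offset, -0.16 without TP-1036, -0.21 without P1041 and -0.54 without TP-1040. Pcdh11x, an X-linked member, had the largest difference of the family, at 12.9 and 8.72 CPM against 4.66 and 8.13 CPM, or -0.75 ± 0.31 (adjusted p = 0.495). It rested on both TP-1036 and P1041, since the log2 difference was -0.40 without TP-1036 and -0.45 without P1041. Without TP-1040 it was -1.20, and without P1033 it was -1.01. Pcdh1, an adhesion protein also of epithelia, overlapped, at 49.6 and 50.8 CPM against 40.5 and 53.7 CPM.

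Of the delta-2 genes, which bind the WAVE complex of actin regulators through their tails, 4 of 5 had lower values. Pcdh10 had 2500 and 2302 reads in wild type and 2065 and 2567 reads in TP-1036 and TP-1040. Its levels were 86.8 and 69.0 CPM against 54.7 and 62.6 CPM, with a log2 difference of -0.41 ± 0.15 (adjusted p = 0.495). The groups lay apart, but P1041 and P1033 were further from each other than P1033 was from TP-1036 or TP-1040. The difference was -0.24 with the length offset and -0.23 without P1041. Pcdh8, an activity-regulated member, stood at 22.0 and 20.4 CPM against 17.5 and 19.2 CPM, also apart. Pcdh19, the X-linked gene of a female-limited epilepsy, overlapped at 32.3 and 30.2 CPM against 30.4 and 26.3 CPM, as did Pcdh18 at 9.85 and 8.78 CPM against 6.97 and 8.91 CPM. Pcdh17, known from synapse and axon development, stood at 48.6 and 44.4 CPM against 56.2 and 46.4 CPM, a log2 difference of 0.14 ± 0.14 (adjusted p = 0.648). Only TP-1036 lay above both wild-type libraries there, and with the length offset the difference was 0.42. Its longest transcript, of 11451 bases, is the longest of the family. Pcdh20, put in neither delta group here, overlapped at 10.9 and 9.50 CPM against 10.6 and 10.3 CPM.

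**Figure D3:**
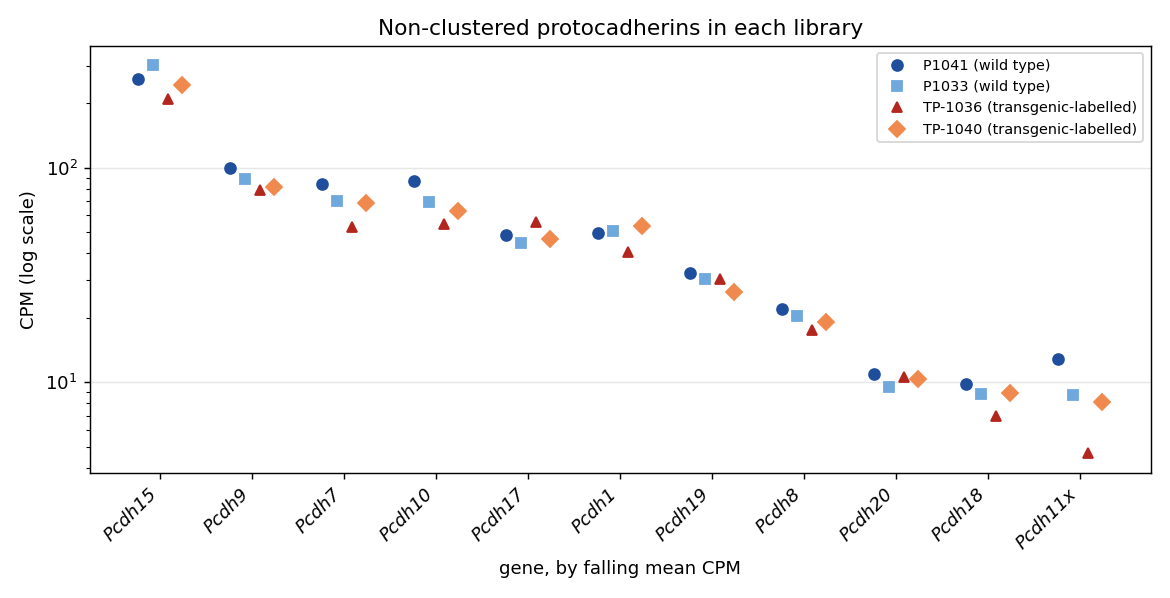
Level of each non-clustered protocadherin (horizontal axis, by falling mean) in CPM on a log scale (vertical axis), with 1 point per library. Pcdh15 lies between 209 and 301 CPM, above all others, and the red triangles of TP-1036 are the lowest of the 4 points for Pcdh15, Pcdh9, Pcdh7, Pcdh10, Pcdh1, Pcdh8, Pcdh18 and Pcdh11x.

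The Pcdha cluster was the least abundant, and 11 of its 13 genes had lower values. All 9 genes from Pcdha1 to Pcdha9 had log2 differences below 0, from -0.64 to -0.14. The next in order, Pcdha11 and Pcdha12, lay above 0, a division seen only in the values. The last genes, Pcdhac1 and Pcdhac2, lay below 0 again, at -0.25 and -0.062. Pcdha7 had 284 and 319 reads in wild type and 241 and 265 reads in TP-1036 and TP-1040. At 9.85 and 9.56 CPM against 6.38 and 6.48 CPM, the values within each group lay close together and the groups far apart. The log2 difference was -0.60 ± 0.16 (unadjusted p = 0.00718, adjusted p = 0.489 with edgeR), one of the smallest unadjusted p of the family. It was nearly the same with each library left out, from -0.62 to -0.57.

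Pcdha6 showed the same arrangement, at 7.25 and 7.54 CPM in wild type and 4.35 and 5.13 CPM in TP-1036 and TP-1040. Its log2 difference was -0.64 ± 0.19 (adjusted p = 0.492). Pcdha5 stood at 7.25 and 5.90 CPM against 4.61 and 4.45 CPM. In all 3 of these neighbours the transgenic-labelled values lay below both wild-type values in TP-1036 and TP-1040 alike, with log2 ratios to the wild-type mean from -0.76 to -0.50. Pcdha3 and Pcdha8, in contrast, were low in TP-1036 alone, with ratios of -0.85 and -1.03 there and -0.062 and 0.15 in TP-1040. Pcdha8 had the fewest reads of the family, 41.9 in TP-1036. Pcdha4 and Pcdha11, the most abundant alternate members, overlapped, at 14.1 and 11.8 CPM against 12.8 and 10.8 CPM (log2 difference -0.14 ± 0.17, adjusted p = 0.711) and at 12.7 and 11.5 CPM against 11.2 and 15.4 CPM (0.14 ± 0.19, adjusted p = 0.741). Pcdha12 stood at 7.56 and 6.97 CPM against 9.15 and 8.46 CPM, with both transgenic-labelled values above both wild-type ones.

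The last exons of the cluster encode the C-type members, which are not chosen at random as the alternate ones are. Pcdhac2, which is needed by serotonergic axons for their tiling, was the most abundant Pcdha gene per length, at 5.81 CPM per kilobase. It stood at 36.5 and 33.3 CPM in wild type and 32.0 and 34.8 CPM in TP-1036 and TP-1040, with overlapping groups and a log2 difference of -0.062 ± 0.12 (adjusted p = 0.824). As a share of the Pcdha reads of a library it was 27.6% (26.2% to 29.0%) and 27.9% (26.5% to 29.3%) in wild type against 30.2% (28.8% to 31.7%) and 29.6% (28.3% to 30.9%), and these Wilson 95% intervals overlap and cover counting error only. Of the Pcdha genes Pcdhac1 differed most between the wild-type libraries, at 9.58 and 6.12 CPM, and its transgenic-labelled values of 6.93 and 6.25 CPM lay between them.

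In the Pcdhb cluster, whose single-exon genes share few stretches with each other, 20 of 21 genes had lower values and Pcdhb9 alone was higher. The median log2 difference was -0.16, and in 11 genes the groups lay apart, all of them lower (52.4%, against 24.3% of all entries). Of these 11, 7 lie in the stretch from Pcdhb14 to Pcdhb21, both included, where Pcdhb15 alone overlapped. Pcdhb21 is among the 7, but its reads were divided with Pcdhb22, so its single value is uncertain. Pcdhb17, the most abundant by CPM, had 1005 and 1147 reads in wild type and 1060 and 1290 in TP-1036 and TP-1040. Its levels of 34.9 and 34.4 CPM against 28.1 and 31.5 CPM lay apart, with wild-type values close to each other. The log2 difference was -0.22 ± 0.12 (adjusted p = 0.517), and -0.13 without TP-1036.

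Pcdhb19 had the largest difference of the cluster, at 28.7 and 31.6 CPM in wild type and 16.2 and 26.3 CPM in TP-1036 and TP-1040, or -0.50 ± 0.23 (adjusted p = 0.497). Pcdhb15 stood at 8.74 and 9.56 CPM against 4.21 and 8.76 CPM, or -0.49 ± 0.33 (adjusted p = 0.538), and Pcdhb16 at 22.6 and 22.3 CPM against 11.8 and 21.8 CPM. In these 3 the low value was that of TP-1036, whereas TP-1040 lay near wild type. Without TP-1036 the log2 differences were -0.19, -0.061 and -0.035. Pcdhb20, by contrast, was as low in TP-1040 as in TP-1036, at 26.9 and 28.1 CPM against 23.5 and 23.4 CPM. Pcdhb14 stood at 21.9 and 22.5 CPM against 14.9 and 18.8 CPM, the one Pcdhb gene at an unadjusted p under 0.05 (log2 difference -0.40 ± 0.15). Its transcript of 8695 bases is the longest of the cluster, and the difference was -0.22 with the length offset and -0.23 without TP-1036. Pcdhb22, whose reads were divided with its neighbour Pcdhb21, overlapped at 29.0 and 29.9 CPM against 29.0 and 27.0 CPM, with a log2 difference of -0.071 ± 0.12 (adjusted p = 0.790). Pcdhb9 also overlapped, at 18.6 and 15.2 CPM against 20.7 and 18.5 CPM.

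The Pcdhg cluster, whose genes govern dendrite self-avoidance and interneuron survival, was mixed in direction. Of its 22 genes 13 had lower and 9 higher values, with a median of -0.022. The Pcdhga genes were lower in 10 of 12, with a median of -0.097, while the Pcdhgb genes were higher in 5 of 7, with a median of 0.030, and the difference between these types was not tested. The sign of these medians turned with the processing: Pcdhgb was at -0.0073 with library totals alone as the scale, and the Pcdhg median was 0.037 with the length offset. In 4 genes both transgenic-labelled libraries lay above both wild-type ones (18.2%, against 24.1% of all entries) and in 4 below (18.2%, against 24.3%).

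Pcdhgc3, a C-type member that can act in the Wnt pathway through Axin1, stood out among the Pcdhg genes as the most abundant and the highest in its difference. It had 2656 and 2895 reads in wild type and 4464.5 and 4913 reads in TP-1036 and TP-1040. Its levels were 92.2 and 86.8 CPM in wild type against 118.3 and 119.9 CPM in TP-1036 and TP-1040, where the values lay close together and well above both wild-type values. The means were 89.5 ± 3.83 and 119.1 ± 1.10 CPM (SD, n = 2), a change of 33.1%. The log2 difference was 0.41 ± 0.11 (unadjusted p = 0.00765, adjusted p = 0.489 with edgeR), from 0.37 to 0.46 with each library left out and 0.47 with the length offset. Of the 11 alternatives it passed only without TP-1040 (edgeR adjusted p = 0.0115, where the alternatives ran up to 0.9998).

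Within its cluster the share of reads given to Pcdhgc3 was also higher, a measure that does not depend on the library scale. It was 18.1% (Wilson 95% interval 17.5% to 18.7%) in P1041 and 16.5% (15.9% to 17.0%) in P1033, and 22.8% (22.2% to 23.4%) in TP-1036 with 21.4% (20.9% to 22.0%) in TP-1040. The difference between groups was larger than that within either group. The intervals cover counting error only, and the reads had been divided between isoforms, so they do not cover the division. The neighbouring C-type gene Pcdhgc4, which is needed for interneuron survival, held 7.97% and 7.93% of the cluster's reads in wild type against 7.58% and 7.48%. At 40.6 and 41.9 CPM against 39.4 and 41.8 CPM it overlapped, with a log2 difference of -0.021 ± 0.11 (adjusted p = 0.943). Pcdhgc5, the third C-type gene, stood at 11.0 and 11.7 CPM against 12.1 and 11.99 CPM, apart by a small distance.

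**Figure D4:**
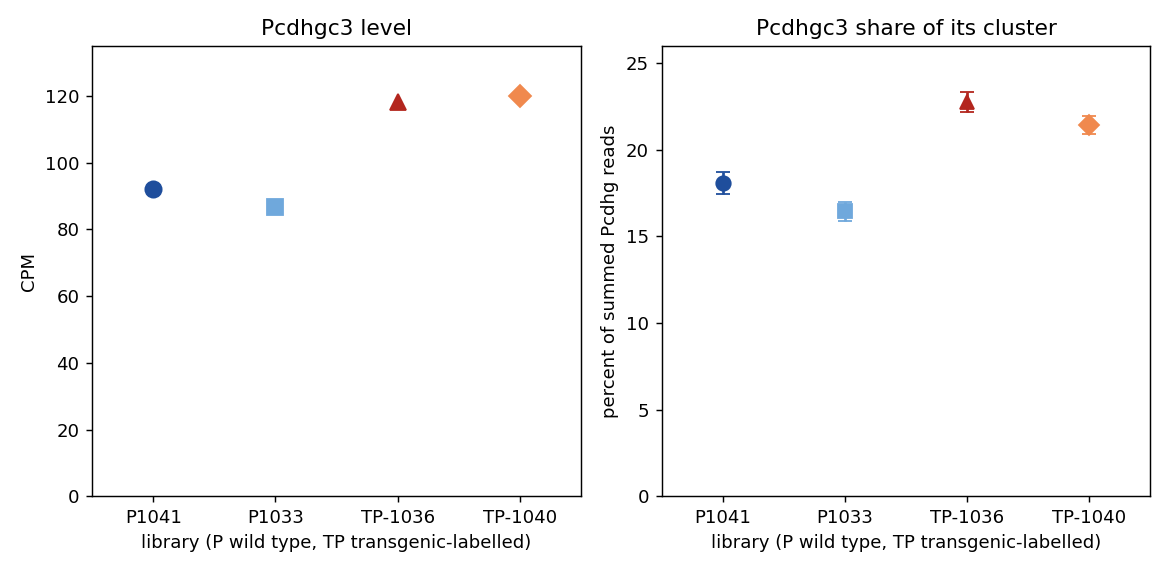
Pcdhgc3 in each library, as its level in CPM (left, vertical axis) and as a percentage of the summed reads of the 22 Pcdhg genes (right, vertical axis, with Wilson 95% intervals). The transgenic-labelled libraries TP-1036 and TP-1040 lie above P1041 and P1033 in both panels, at 118.3 and 119.9 CPM and at 22.8% and 21.4%.

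Of the other Pcdhg genes, Pcdhga1, the first of the cluster, was the lowest in its difference, at 17.4 and 14.8 CPM in wild type and 8.76 and 12.8 CPM in TP-1036 and TP-1040. The groups lay apart, with a log2 difference of -0.58 ± 0.21 (adjusted p = 0.495) that was -0.88 without TP-1040 and -0.33 without TP-1036. Pcdhgb6 stood at 30.6 and 34.2 CPM against 34.5 and 36.9 CPM, a log2 difference of 0.14 ± 0.12 (adjusted p = 0.615), and P1033 nearly reached TP-1036. Pcdhgb7 stood at 23.8 and 26.1 CPM against 30.4 and 28.4 CPM, with both transgenic-labelled values above both wild-type ones. Pcdhgb8, which GENCODE annotates as a polymorphic pseudogene, overlapped at 11.8 and 14.4 CPM against 17.0 and 14.1 CPM. Pcdhgb2 was the member most divided between the transgenic-labelled libraries in this cluster, at 15.5 CPM in TP-1036 and 25.8 CPM in TP-1040, on either side of 20.3 and 20.8 CPM in wild type.

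**Figure D5:**
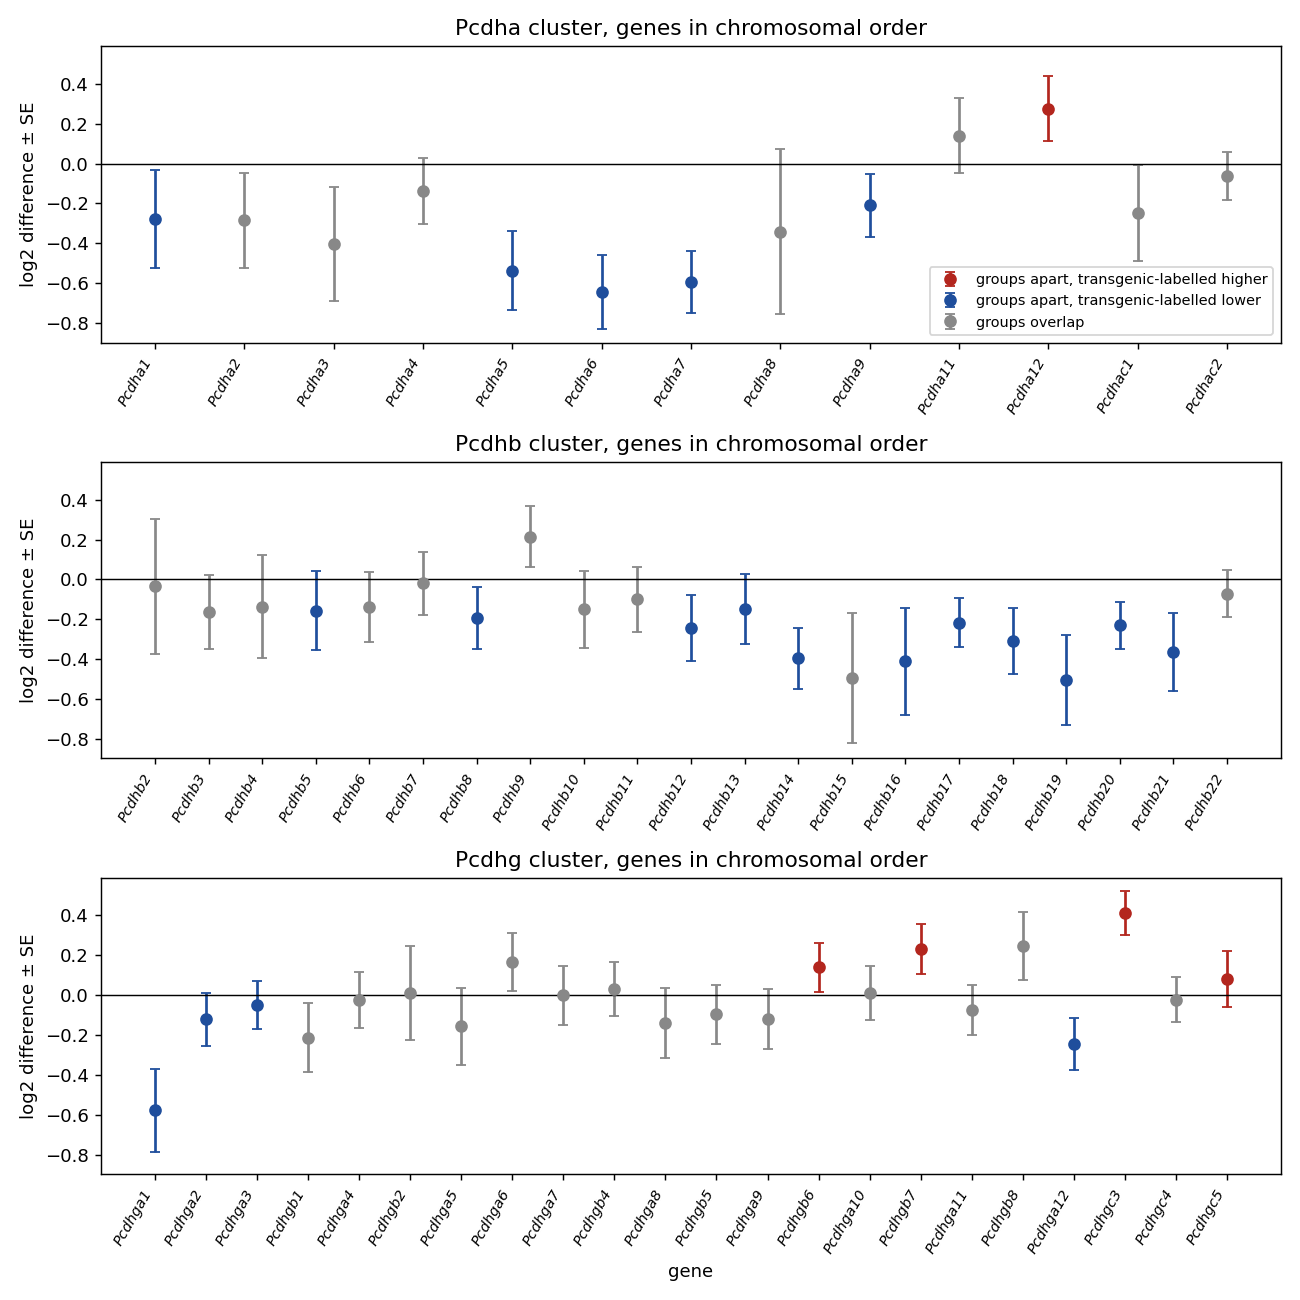
Log2 difference of the transgenic-labelled from the wild-type libraries (vertical axis, point with SE, n = 2 per group) for each Pcdha, Pcdhb and Pcdhg gene in chromosomal order (horizontal axis), red or blue where the groups lay apart. Pcdhb genes lie below 0 except Pcdhb9, and the highest point of the 3 panels is Pcdhgc3 at 0.41.

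Markers of several retinal cell types also had levels that lay apart between the groups. Over all entries, 24.1% lay apart with the transgenic-labelled libraries higher and 24.3% with them lower. In bulk tissue fewer cells of a type and less RNA per cell cannot be told apart. All 5 rod markers had entries and were higher, 4 of them with the groups apart, at summed levels of 52068 to 58277 CPM in wild type and 59969 to 65934 CPM in the transgenic-labelled libraries. All 5 amacrine cell markers were lower with the groups apart, at summed levels of 857 to 941 CPM in wild type and 776 to 811 CPM in the transgenic-labelled libraries. Of 5 starburst amacrine markers Chat, Slc18a3 and Slc5a7 were lower and the other two higher. All 6 ganglion cell markers were lower, 4 of them with the groups apart, at 437 to 653 CPM against 348 to 401 CPM. All 5 Müller glia markers were higher, at 3067 to 3163 CPM against 3409 to 4117 CPM, and so were all 5 microglia markers, at 78.9 to 88.6 CPM against 111.0 to 180.4 CPM. Of 5 lens markers, of which 2 had entries, the sums were 2.46 and 0.060 CPM in wild type, 211.1 CPM in TP-1036 and 4.64 CPM in TP-1040, and Crybb2 was at 0 reads in P1033. Pigment epithelium markers, 4 of 5 with entries, summed to 334 and 354 CPM in wild type and to 394 and 548 CPM with TP-1036 the highest. Of these 4 markers 3 were higher and Tyrp1 was lower. The set shares Rlbp1 with the Müller glia set, so the 2 sums are not separate. Other sets went both ways. Bipolar cell markers were 2 higher and 2 lower, and cone, horizontal cell and pericyte markers were each 3 higher and 1 lower. Of the endothelial markers 4 were higher and 1 lower, with the groups apart in each. The part of these cell types in the protocadherin values was not tested.

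Genes that work with protocadherins were mixed in direction, and edgeR called 0 in each of 5 lists. Of 18 factors of clustered promoter choice, CTCF, cohesin and repressive chromatin proteins among them, 11 were lower and 7 higher, with a median of -0.053 that was 0.050 with the length offset and 0.048 without TP-1036. The DNA methyltransferase Dnmt3b, which methylates clustered promoters in development, stood at 4.54 and 5.42 CPM in wild type and 3.05 and 3.73 CPM in TP-1036 and TP-1040, a log2 difference of -0.56 ± 0.23 (adjusted p = 0.495). The cohesin loader genes Mau2 and Nipbl went opposite ways, at -0.32 ± 0.15 and 0.12 ± 0.12. Of 22 genes of protocadherin signalling 14 were higher and 8 lower, with a median of 0.017 that was -0.019 with library totals and -0.012 without TP-1040. The focal adhesion kinase family gene Ptk2b, whose kinase is inhibited by clustered protocadherins, differed by 0.54 ± 0.27, the WAVE gene Wasf2 by 0.27 ± 0.13 and the WAVE regulator Cyfip2 by -0.076 ± 0.13 (log2, SE).

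Other cadherins were also mixed in direction. Of 23 classical cadherin and catenin genes 12 were higher and 11 lower, with a median of 0.0034. That median was -0.034 with library totals and -0.0014 for genes with a mean of at least 1 CPM. At an unadjusted p under 0.05 edgeR gave 5 lower genes (21.7%, against 4.65% of all entries and 10.4% of the protocadherins). It gave 1 higher gene (4.35%, against 5.26% of all entries). The groups lay apart in 9 higher genes (39.1%, against 24.1%) and 6 lower genes (26.1%, against 24.3%). Cdh12 stood at 13.98 and 13.9 CPM in wild type and 7.26 and 10.4 CPM in TP-1036 and TP-1040 (log2 difference -0.65 ± 0.20, adjusted p = 0.495). Cdh3, a cadherin of epithelia, differed by 0.79 ± 0.58 on 9 reads in P1041 and 46 to 60 in the others, and the catenin gene Ctnnb1 by 0.099 ± 0.12. Of 13 large and atypical cadherins 8 were higher and 5 lower, with a median of 0.11 that was -0.064 without TP-1040 and -0.028 without P1041. Fat3, which shapes amacrine cell dendrites, stood at 116.0 and 104.9 CPM against 48.3 and 90.0 CPM (-0.67 ± 0.27, adjusted p = 0.495), the calsyntenin Clstn1 differed by 0.30 ± 0.14 and the planar polarity gene Celsr1 by 0.46 ± 0.38. Of 11 genes of the Usher protein complex, partners of Pcdh15, 7 were lower and 4 higher, with a median of -0.081. The ankle link gene Adgrv1 stood at 226.5 and 241.2 CPM against 109.0 and 205.9 CPM (-0.57 ± 0.27, adjusted p = 0.50) and the hair cell gene Lhfpl5 differed by -0.47 ± 0.32. In Fat3 and Adgrv1, as in many protocadherins, TP-1036 was the lowest library. Over 14405 genes the relative level in TP-1036 also correlated with transcript length, at -0.429 (Spearman). No length-offset value is given here for Fat3 or Adgrv1.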

How the data were processed

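The labels' protocols give total RNA of retinas and an Illumina TruSeq RNA kit. Bowtie 0.12.2 and the builds mm8 and mm9 are listed, with no role, in the submitters' processing notes, and no source used here names the read counter, annotation, filters or use of strand. The authors deposited 1 table, and its columns of estimated counts per gene were read as such from their values, since 80.3% to 82.4% were whole and the totals differ. Another 4 columns of per-sample values were not used, because they exceed the samples of each group. Column names gave the group and no replicate number of the labels, and nothing says that libraries came from separate animals, so p-values measure only the spread between these libraries. The smallest entry total was 76.9 reads, so genes with few reads are missing from the table.

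Estimated counts were rounded and tested with edgeR 4.0.16 (limma 3.58.1, R 4.3.3): TMM scaling, filterByExpr (which removed 0 of 14572 entries, so all 67 members passed), quasi-likelihood fits and two-sided tests of genotype, with Benjamini-Hochberg adjustment over all entries at 0.05. Residual degrees of freedom were 2, and the biological coefficient of variation common to all genes was 13.9%. SE was taken as log2 difference over the square root of F. CPM use TMM-scaled totals, and ratios per library add 0.05 CPM. Lengths are of the longest GENCODE M21 transcript, matched by name for 14405 entries, and the length alternative adds a loess offset (span 0.5) per library. Promoters are from RefSeq. The code of the fits was run on simulated counts. These had less spread than the data, larger changes than any member and no library set apart like TP-1036. That run therefore does not measure how the fits perform here. Alternatives were RLE factors, library totals, DESeq2 1.42.0, limma-voom, 2 other filters, the length offset and each library left out. Members and lists were chosen with earlier results of these data known. Full statistics were given to the 3 members of highest mean CPM and the 2 of largest difference in each class, and from each list to the 2 of largest difference and the 1 of highest mean, of which 1 is not reported here. Pcdh17, Pcdhb14 and others beyond these were named after their values were seen.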

Additional observations from a re-analysis of the deposited data

How the results depend on the processing

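The number of genes called by edgeR, 1, was 0 with library totals or the length offset, 87 with DESeq2, and from 21 to 4177 with a library left out. The number of protocadherins called, 0, ran from 0 to 19 and that in the other lists from 0 to 23 with a library left out, the upper values without TP-1040. The cause was not tested, but that setting compares TP-1036 alone with wild type. It also gave the largest number called over all genes, so these counts alone do not set protocadherins or the other lists apart. The summed log2 difference of Pcdhb, -0.22, ran from -0.35 to -0.11, and that of the non-clustered genes, -0.25, from -0.33 to -0.17 with a library left out, while that of Pcdha, -0.17, ran from -0.25 to -0.097 and that of Pcdhg, 0.057, from 0.0030 to 0.11. Signs turned for Pcdhac2 (0.033 with the length offset, from -0.13 to 0.0037 with a library left out), Pcdhb22 (0.058 with the length offset), Pcdhgc4 (0.045 with the length offset, from -0.061 to 0.025 with a library left out) and Pcdha11 (from -0.10 to 0.35 with a library left out). Of 198 values for 18 members under 11 alternatives 181 kept direction and call, 10 became calls, all without TP-1040, and 7 changed sign. Among the 11, the setting with no filter is the main fit itself, because filterByExpr removed 0 entries. Its values for the 18 members could only stay the same. The fewest reads of a member in a library were 41.9, and the members' SE had a median of 0.16 and reached 0.41. No paired analysis was possible because the columns carry no replicate numbers of the labels.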
